A study of Mus musculus with 9 samples.

Results

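Among the genes deposited for this study of mouse maxillary bone, 6 of 98 belong to the mitochondrial genome or carry copies of it: the mitochondrially encoded mRNAs mt-Nd1, mt-Nd2, mt-Cytb and mt-Atp8, and the pseudogenes Gm10925 and Gm50174, which lie on nuclear chromosomes and match mt-Atp6. They were taken by gene name. The 98 genes had been selected by the authors for a difference between the same groups at an adjusted p under 0.1, so the difference of each of the 6 genes between groups is given as a description and was not tested. All mice were male C57BL, 8 weeks old, had a maxillary first molar extracted and were sacrificed 2 weeks later. In the Spon. Healing group (4 mice) the socket healed without a graft, and in the Allograft group (5 mice) it was filled with particles of C57BL/6 femur and tibia mixed with saline. Before grafting, the particles had been flushed of marrow, lyophilized and irradiated with ultraviolet light. RNA was taken from pulverized maxillae, and how much tissue beyond the socket they held is not stated. CEL-Seq2, which primes on poly(A) and reads the 3′ ends of transcripts, gave 1 library per mouse. Replicates are numbered as in the sample titles.

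The mitochondrial genome is a small circle that encodes 13 proteins, all of them subunits of the complexes of oxidative phosphorylation. It is transcribed into long precursors, from which most mRNAs are released by cutting out the tRNAs that lie between them, and most of these mRNAs then receive a short poly(A) tail. Pieces of mitochondrial DNA have also been copied into the nuclear chromosomes over evolution, where they remain as pseudogenes. Of the 4 listed mRNAs, mt-Nd1 and mt-Nd2 encode core membrane subunits of complex I, which accepts electrons from NADH. mt-Cytb encodes cytochrome b, the subunit of complex III made inside the mitochondrion, and mt-Atp8 encodes a small membrane subunit of ATP synthase. The same enzyme's proton channel contains the product of mt-Atp6, which shares its transcript with mt-Atp8.

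In GRCm38, mt-Nd1 (ENSMUSG00000064341) lies at MT:2751-3707, mt-Nd2 (ENSMUSG00000064345) at MT:3914-4951, mt-Atp8 (ENSMUSG00000064356) at MT:7766-7969 and mt-Cytb (ENSMUSG00000064370) at MT:14145-15288, all on the plus strand and each a single exon. mt-Nd1 and mt-Nd2 each share their last 2 annotated bases with the tRNA gene that follows, and mt-Cytb ends directly before one, with no annotated base between. The last 60 bases of these mRNAs are shown because CEL-Seq2 starts from the 3′ end. The capitals mark the annotated stop codon, of which mt-Cytb carries only the first base.
mt-Nd1, MT:3648-3707: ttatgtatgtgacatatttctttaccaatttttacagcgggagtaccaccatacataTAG
mt-Nd2, MT:4892-4951: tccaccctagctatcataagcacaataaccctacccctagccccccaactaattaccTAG
mt-Cytb, MT:15229-15288: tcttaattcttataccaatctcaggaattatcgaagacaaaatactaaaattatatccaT

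mt-Atp8 differs from these, because it has no 3′ end of its own. Its last 43 bases are also the first 43 bases of mt-Atp6 (MT:7927-8607) in another reading frame, and they are in capitals in the whole mt-Atp8 sequence and in the first 60 bases of mt-Atp6. Gm10925 (ENSMUSG00000100862, chr1:24613974-24614651, minus strand) is annotated as an unprocessed pseudogene, and its first 60 bases are printed beside them with the same capitals.
mt-Atp8, MT:7766-7969: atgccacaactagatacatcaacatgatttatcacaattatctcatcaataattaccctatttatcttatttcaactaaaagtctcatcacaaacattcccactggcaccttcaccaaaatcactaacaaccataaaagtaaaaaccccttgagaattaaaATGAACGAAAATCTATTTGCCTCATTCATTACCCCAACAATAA
mt-Atp6, MT:7927-7986: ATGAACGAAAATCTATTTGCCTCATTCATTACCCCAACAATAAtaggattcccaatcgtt
Gm10925, chr1:24614592-24614651: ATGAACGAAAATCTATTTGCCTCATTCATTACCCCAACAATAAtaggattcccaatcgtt

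Gm10925 carries no base that tells it from mt-Atp6. All its 678 bases equalled the first 678 of the 681 bases of mt-Atp6, with 0 differences, and the annotation of Gm10925 stops directly before the stop codon of mt-Atp6, in capitals here.
mt-Atp6, MT:8548-8607: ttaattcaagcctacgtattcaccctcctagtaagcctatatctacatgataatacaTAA
Gm10925, chr1:24613974-24614030: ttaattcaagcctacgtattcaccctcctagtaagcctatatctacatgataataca

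Gm50174 (ENSMUSG00000117910, chr18:65837287-65837475, plus strand) is a processed pseudogene of 189 bases. Its first 187 bases aligned without gaps to bases 364 to 550 of mt-Atp6, with 175 identical and 12 different (93.6% identity). The shortest read the authors kept had 28 bases, and up to 2 mismatches were allowed in alignment. Of the 160 windows of 28 bases that Gm50174 covers in mt-Atp6, 28 were identical and 121 differed at 2 bases or fewer, whereas all 651 windows covered by Gm10925 were identical. Counts of both copies are therefore uncertain as to their source: a read inside Gm10925 fits mt-Atp6 equally well, and one inside Gm50174 may do so. The authors counted only reads with a mapping quality of at least 10, and how this filter treated such reads was not tested. mt-Atp6 itself is not among the listed genes.

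**Figure D1:**
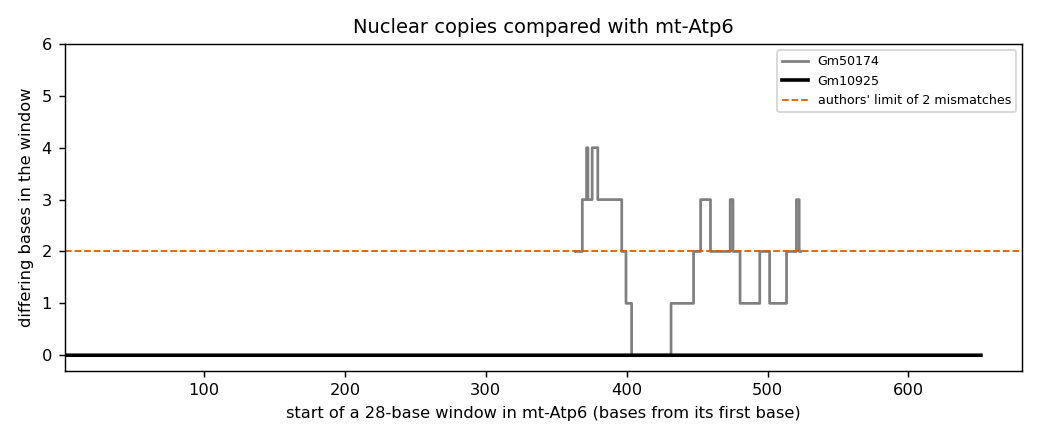
Differing bases (y axis) between mt-Atp6 and each nuclear copy in windows of 28 bases, plotted by the start of the window in bases from the first base of mt-Atp6 (x axis). Gm10925 lies at 0 throughout its 651 windows, and Gm50174 covers 160 windows, 121 of them at or under the dashed line of 2 mismatches.

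The 4 listed mRNAs were also among those with the fewest stretches shared with annotated nuclear genes. None of the 930 windows of 28 bases in mt-Nd1 occurred in another annotated transcript, and the share was 9.04% in mt-Atp8, 9.31% in mt-Cytb and 15.6% in mt-Nd2. Of the 9 unlisted mRNAs, mt-Nd6 had 10.4%, mt-Nd5 had 19.0%, and the other 7 ranged from 62.8% in mt-Nd4 to 100% in mt-Co2. The windows run along the whole mRNA, whereas CEL-Seq2 reads come from the 3′ ends, and only annotated transcripts were searched, not the genome. The shares are therefore not a measure of how many reads could be placed. The windows of mt-Atp8 found in Gm10925 were the 16 inside the overlap with mt-Atp6, while mt-Nd2 shared windows mainly with Gm13339 on chromosome 2 and mt-Cytb with Gm11410 on chromosome 4. The counting step used by the authors left out reads aligned with a quality under 10. Whether this bears on which mitochondrial mRNAs were listed was not tested, because counts of the other 9 were not analysed here.

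**Figure D2:**
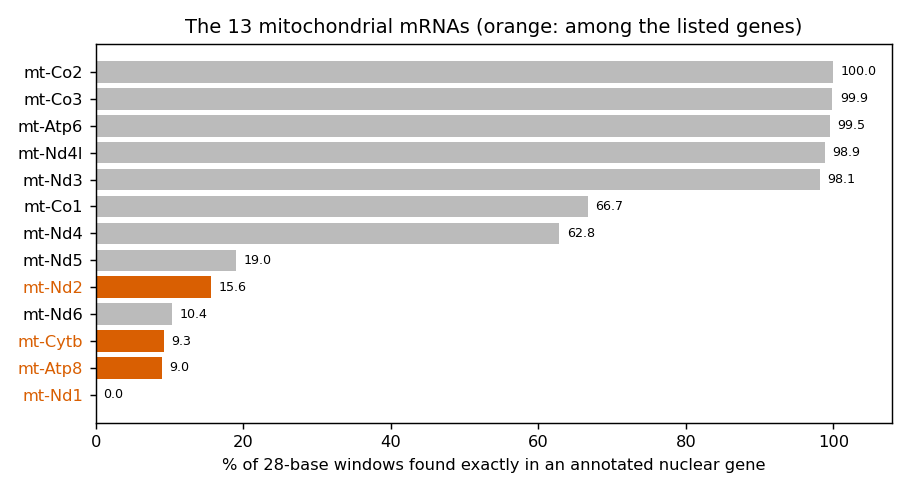
Percent of the 28-base windows of each of the 13 mitochondrial mRNAs that occur exactly in an annotated nuclear gene (x axis), with the listed mRNAs in orange. The listed mRNAs run from 0% (mt-Nd1) to 15.6% (mt-Nd2), and 8 of the 9 others lie above them, with mt-Nd6 at 10.4%.

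Each of the 6 genes had a higher mean in Allograft than in Spon. Healing, by 1.55-fold (mt-Nd1) to 1.82-fold (Gm10925). Values are normalized counts, for which the authors scaled the raw counts of each library by its DESeq2 size factor. In 4 of the 6 genes every Allograft library lay above every Spon. Healing library. The same held for 53.1% of all 98 listed genes, which were selected on this contrast, and nothing is read from the count. None of the 6 was lower without overlap, beside 21.4% of the listed genes, and 74.5% of the listed genes were separate in either direction. In bulk bone, a larger share of cells rich in mitochondria and more mitochondrial RNA per cell cannot be told apart.

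The complex I mRNAs come first. mt-Nd1 had 32291, 30882, 13823 and 40507 normalized counts in Spon. Healing replicates 1 to 4, and 43072, 47215, 47760.2, 44433 and 45612 in Allograft replicates 1 to 5. The Allograft libraries were close together and all above the highest Spon. Healing library, replicate 4, while replicate 3 was far below the rest. The group means were 29376 ± 11204 (SD, n = 4) and 45618 ± 1938 (SD, n = 5), a log2 ratio of 0.63. mt-Nd2 had 11276, 17238, 6851 and 19837 in Spon. Healing and 19519, 27791, 24943.5, 21357 and 23101 in Allograft. Here the groups overlapped, since Spon. Healing replicate 4 exceeded Allograft replicate 1. The means of mt-Nd2 were 13801 ± 5857 (SD, n = 4) and 23342 ± 3200.5 (SD, n = 5), a log2 ratio of 0.76.

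mt-Cytb, the mRNA of complex III, showed the same order of libraries as mt-Nd2 at the ends of each group. It had 35376, 52649, 18448.5 and 62708 normalized counts in Spon. Healing and 59498, 81284, 67133, 65131 and 75423 in Allograft, with the same pair of libraries overlapping. Its means were 42296 ± 19497 (SD, n = 4) and 69694 ± 8638 (SD, n = 5), a log2 ratio of 0.72. mt-Atp8, of ATP synthase, had 299.7, 365, 133 and 362 in Spon. Healing and 432, 586, 524, 403 and 489 in Allograft. The groups of mt-Atp8 did not overlap, and its lowest Allograft library was replicate 4, not replicate 1. The means were 290.1 ± 109 (SD, n = 4) and 487 ± 73.0 (SD, n = 5), a log2 ratio of 0.75.

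Both nuclear copies had lower counts than mt-Atp8 in every library, and far lower counts than the other 3 mRNAs. Gm10925 had 172, 334, 55 and 138 raw counts in Spon. Healing and 192, 369, 424, 716 and 412 in Allograft. After division by the size factors these were 208, 232, 84.1 and 239, and 294, 421, 346, 325 and 350.2, so that all Allograft libraries lay above all Spon. Healing libraries. The means of Gm10925 were 191 ± 72.4 (SD, n = 4) and 347 ± 46.7 (SD, n = 5), a log2 ratio of 0.86. Gm50174 had 122, 260, 48 and 100 raw counts in Spon. Healing and 134, 246, 331, 482 and 322 in Allograft. Its normalized counts were 147, 181, 73.4 and 173 against 205, 280.4, 269.9, 219 and 274, again without overlap. The means were 144 ± 49.0 (SD, n = 4) and 249.6 ± 34.9 (SD, n = 5), a log2 ratio of 0.80. Counting alone gives Gm50174 an error of 14.4% at the 48 counts of Spon. Healing replicate 3, and gives the sum of the 4 mRNAs 0.186% in Allograft replicate 4. Both take each count as an independent molecule, and duplicated reads would make the error larger.

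**Figure D3:**
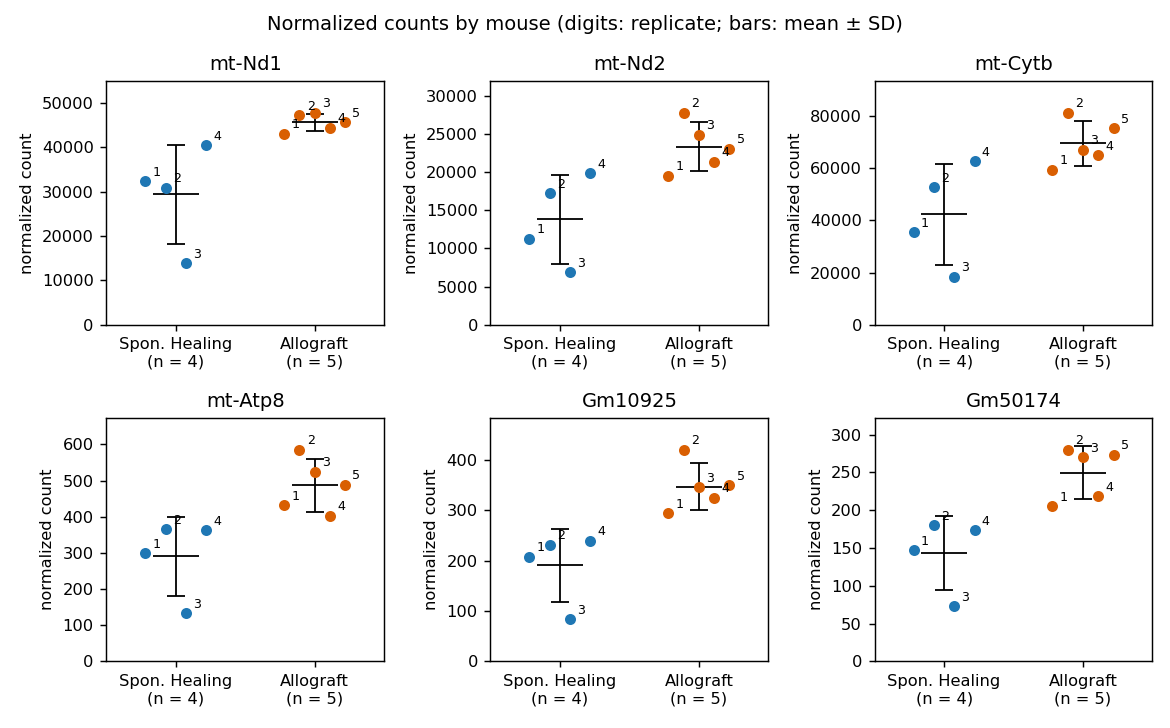
Normalized counts (y axis, from 0) of the 6 genes in each mouse, with Spon. Healing (n = 4) in blue and Allograft (n = 5) in orange, the replicate number beside each point, and the mean ± SD as bars. Spon. Healing replicate 3 is the lowest library in every panel, and only mt-Nd2 and mt-Cytb have a Spon. Healing library (replicate 4) above an Allograft library (replicate 1).

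The median log2 ratio of the 6 genes was 0.75, with a range of 0.63 to 0.86. Among the 90 other listed genes with a mean of at least 10 raw counts, 58 were higher in Allograft, with a median log2 ratio of 0.53, and 31 were lower. The remaining one had no counts in Spon. Healing. Per kilobase of annotated length the Allograft means were 60921 normalized counts for mt-Cytb, 47668 for mt-Nd1, 22488 for mt-Nd2, 2386 for mt-Atp8, 1321 for Gm50174 and 512 for Gm10925. CEL-Seq2 reads come from 3′ ends, where counts need not scale with length, so this is not an order of transcript numbers.

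The size of the difference depended on 1 mouse and on the scaling. Spon. Healing replicate 3 was the lowest of its group in 6 of 6 genes, at 36.7% (mt-Cytb) to 43.9% (Gm50174) of the mean of the other 3 Spon. Healing libraries. Among the 58 other genes that were higher in Allograft, it was the lowest of its group in 19, beside 20 for replicate 1 and 16 for replicate 4. Without replicate 3, the log2 ratio was 0.40 for mt-Nd1, 0.53 for mt-Nd2, 0.47 for mt-Cytb, 0.51 for mt-Atp8, 0.62 for Gm10925 and 0.58 for Gm50174. The size factor of replicate 3 was 0.654, between 0.577 in replicate 4, which had the highest sum of the 4 mRNAs in its group, and 0.827 in replicate 1. Its normalized sum over the 92 listed genes that are not members was 53068, against 54358 to 58239 in the other Spon. Healing libraries.

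With size factors recomputed from those 92 genes, all 6 genes remained higher in Allograft on average, but in none were the groups separate. The median log2 ratio of the 6 genes was 0.39 with TMM factors and 0.46 with median-of-ratios factors. These scalings moved the median of the other listed genes by -0.36 and -0.29, and the share of all 98 genes with separate, higher Allograft values was then 5.1% and 6.12%. The 92 genes had been selected on this same contrast, and 58 of the 90 with at least 10 mean raw counts were higher in Allograft. Factors built on them take up part of the group difference, so the loss of separation does not show which scaling is right. Without any scaling the median of the 6 genes was 1.16, and in none were the groups separate, beside 4.08% of all 98 genes with separate, higher Allograft values.

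In shares of the raw counts, which need no size factor, the groups overlapped. The 4 mRNAs held 59.0%, 63.3%, 42.4% and 69.3% of the listed counts in Spon. Healing replicates 1 to 4, and 61.2%, 67.3%, 66.0%, 65.2% and 66.6% in Allograft replicates 1 to 5. Spon. Healing thus had both the lowest and the highest library, with a mean of 58.5% ± 11.5 (SD, n = 4) beside 65.3% ± 2.42 (SD, n = 5). The 95% Wilson interval was 42.1% to 42.8% for Spon. Healing replicate 3, which covers counting error only and not the difference between mice. These are shares of the counts of selected genes and not of a library, whose depth is not known here. The normalized sum of the 92 other listed genes was 53068 to 58239 in Spon. Healing and 69589 to 77281 in Allograft. As those genes were selected on this same contrast, the denominator takes up part of the group difference. The overlap therefore does not show whether the groups differed. The listed genes held 60516 to 230063 counts in Spon. Healing libraries and 130890 to 443678 in Allograft libraries.

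The division of counts among the 4 mRNAs was alike in both groups. mt-Cytb took 48.6% ± 3.42 of their sum in Spon. Healing (SD, n = 4) and 50.0% ± 1.93 in Allograft (SD, n = 5). mt-Nd1 took 34.8% ± 4.38 and 32.9% ± 2.06, and mt-Nd2 16.2% ± 1.44 and 16.7% ± 0.933. mt-Atp8 held 0.343% ± 0.0367 and 0.349% ± 0.0279. Each of these 4 shares overlapped between groups and differed by less than 1 SD of Spon. Healing. The library that stood apart here was Spon. Healing replicate 1, with 40.7% mt-Nd1 (95% Wilson interval 40.4% to 41.1%) where the other 8 libraries had 30.1% to 35.2%. Replicate 3, low in all 6 genes, had 35.2% mt-Nd1 and 47.0% mt-Cytb, which lies inside the range of the other libraries.

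**Figure D4:**
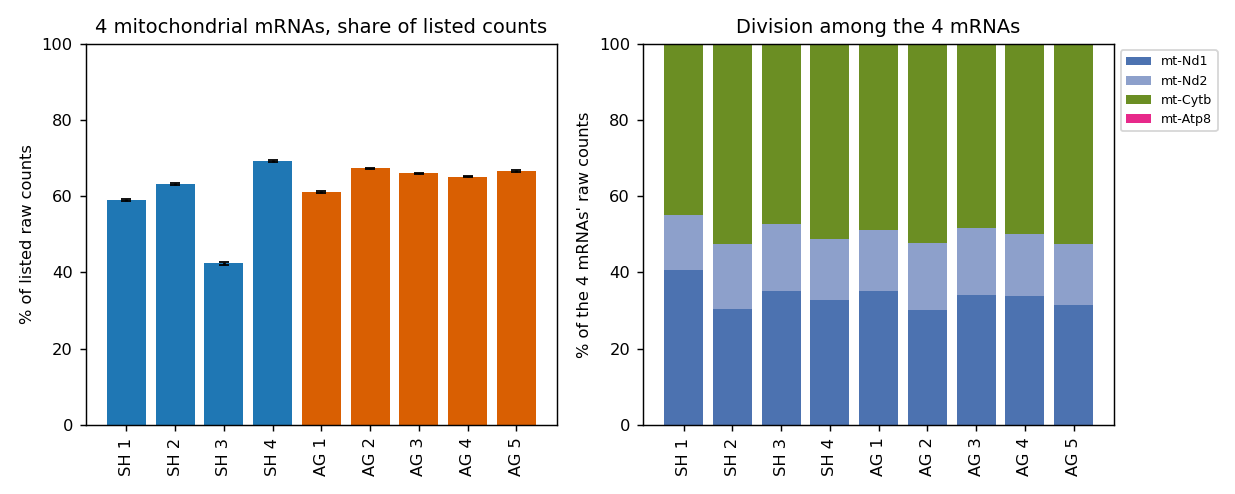
Left, percent of the listed raw counts held by the 4 mitochondrial mRNAs in each Spon. Healing (SH, blue) and Allograft (AG, orange) library, with 95% Wilson intervals as bars. Right, percent of those counts in each mRNA, where mt-Atp8 (0.293% to 0.378%) is too thin to see. SH 3 is lowest on the left at 42.4%, and SH 1 has the largest mt-Nd1 part on the right at 40.7%.

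With all libraries, the spread within a group was larger in Spon. Healing than in Allograft for all 6 genes, but for 3 of them this turned without 1 library. The SD of log2(normalized count + 1) was 0.60 (Gm50174) to 0.78 (mt-Cytb) in Spon. Healing, beside a median of 0.20 over the 90 other listed genes, none of which exceeded mt-Cytb and 4 of which exceeded Gm50174. In Allograft it was 0.06 (mt-Nd1) to 0.22 (mt-Atp8), beside a median of 0.24. Without Spon. Healing replicate 3, the Spon. Healing SD was 0.21 for mt-Nd1, 0.42 for mt-Nd2 and 0.42 for mt-Cytb, still above Allograft. It was 0.16 for mt-Atp8, 0.11 for Gm10925 and 0.15 for Gm50174, below their Allograft values of 0.22, 0.19 and 0.21. The spread was not tested between groups.

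Taken about their group means, the 6 genes moved together over the 9 libraries. With the group means subtracted, Pearson's r over the 9 libraries was 0.89 to 0.98 across the 15 pairs of the 6 genes, with a median of 0.94, and Spearman's rho was 0.70 to 0.98. Pairs of the 90 other listed genes had a median r of 0.02, and 0.699% of their 4005 pairs reached 0.89. All values share the size factor of their library, and r is given as a description without a test. Much of it rested on Spon. Healing replicate 3: without it the 15 pairs had r of 0.38 to 0.96 with a median of 0.76, and 26.2% of the other pairs reached the lowest of these. Without the 2 libraries farthest from the median of each pair's first gene, r was 0.37 to 0.97. The pairs of mt-Nd1 with mt-Nd2 and mt-Cytb then had 0.37 and 0.39, the lowest of the 15, so their r over the 9 libraries depended on the 2 left out.

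Among the mRNAs, mt-Cytb and mt-Nd2 had the highest r, 0.98 over all libraries and 0.96 without Spon. Healing replicate 3. The pairs with mt-Nd1 had 0.38 to 0.64 without that library, with Spon. Healing replicate 1, where mt-Nd1 held its largest share, still included. By Pearson's r over the 9 libraries, each nuclear copy was nearest to mt-Atp8, the listed gene that overlaps mt-Atp6. For Gm10925 and mt-Atp8, r was 0.98, and 0.87 without Spon. Healing replicate 3, and for Gm50174 and mt-Atp8 it was 0.98 and 0.90. This order depended on the measure: Spearman's rho of Gm50174 was 0.97 with mt-Cytb, 0.95 with mt-Nd2 and 0.92 with mt-Atp8. It also depended on the libraries. Within the 5 Allograft libraries, too few for r to be given, the mRNA nearest to Gm10925 was mt-Nd2, the one nearest to Gm50174 was mt-Nd1, and the closest pair of mRNAs was mt-Nd1 and mt-Nd2. Gm10925 had 632 to 807 raw counts per 1000 of mt-Atp8 over the 9 libraries, with a coefficient of variation (SD over mean) of 7.86%, and Gm50174 had 475 to 560.0, with 6.63%. Against mt-Nd1, mt-Nd2 and mt-Cytb the coefficients of both copies were 11.2% to 13.2%. The ratios to mt-Atp8 lay in overlapping ranges in both groups, at 655 ± 28.5 in Spon. Healing (SD, n = 4) and 716 ± 56.5 in Allograft (SD, n = 5) for Gm10925, and 504 ± 32.5 and 514 ± 37.9 for Gm50174.

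**Figure D5:**
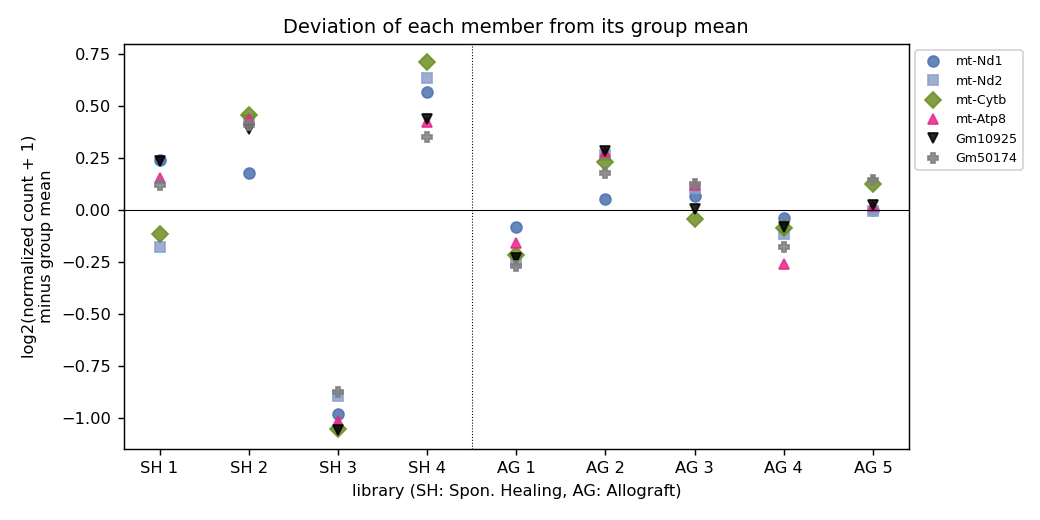
Log2(normalized count + 1) minus the group mean (y axis) of the 6 genes in each library (x axis), with Spon. Healing (SH) left and Allograft (AG) right of the dotted line. All 6 symbols lie far below 0 in SH 3, and in SH 1 mt-Nd2 and mt-Cytb lie below 0 while the other 4 lie above.

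Among the 90 other listed genes, Hsp90b1, the HSP90 chaperone of the endoplasmic reticulum, was most like the mean of the 4 mRNAs, with r = 0.83 and rho = 0.80 over the 9 libraries after subtraction of group means. That rank rested on Spon. Healing replicate 3. Without it, Hsp90b1 had r = 0.77 and ranked 6 of 90, below Slc38a2 at 0.87, and without the 2 farthest libraries (Spon. Healing replicates 3 and 4) it had 0.55 and ranked 19, below Tmem51 at 0.86. Slc38a2 and Tmem51, first in those orders, are named after their values were seen. Prxl2c had r = 0.71, Eid1, an inhibitor of the acetyltransferase p300, had 0.71, and Golim4, a Golgi membrane protein, had 0.67. Without Spon. Healing replicate 3 these 3 values were 0.35, 0.27 and 0.06, so the likeness of those genes rested on that library. The lowest values were -0.60 for Sinhcaf, a subunit of the SIN3 histone deacetylase complex, and -0.53 for the septin Sept4. Over all 90 genes the median r was 0.06.

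Few genes of any list can be among 98, and how many genes were tested is not given in the sources used here, so these counts have no background share and nothing is read from them. Of the 13 mitochondrial mRNAs 4 were listed, 9 were not. None of 80 nuclear genes for subunits of oxidative phosphorylation was listed, nor any of a hand-picked 37 for mitochondrial transcription, RNA processing and translation (such as Tfam, Polrmt and Lrpprc, with 1 symbol of the 37 not found in the reference) or of 16 for mitochondrial chaperones, proteases and import. Listing needed an adjusted p under 0.1, so absence does not show that a gene was alike in both groups. The 37 did not include Mars2, the mitochondrial methionyl-tRNA synthetase, which is a listed gene. Markers of osteoblasts and osteocytes (8), osteoclasts (3), skeletal muscle (7), fat (3), erythroid cells (3) and macrophages and neutrophils (4) were not listed either. The tissue label could therefore not be checked, and whether mitochondria-rich tissue such as muscle took different shares of these libraries was not tested.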

How the data were processed

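The table held whole-number raw counts and normalized signal for 98 genes in 9 libraries, beside the authors' means, fold changes and p-values, which were not used. Per the paper, the authors trimmed reads with cutadapt (quality 10, at least 28 nt), aligned them to GRCm38 (Ensembl release 99) with TopHat, took counts with htseq-count on the gene's strand at a mapping quality of at least 10, and compared groups with DESeq2 (mean count of 3 or more, adjusted p under 0.1). Tool versions, and whether unique molecular identifiers were collapsed, are not given in the sources used here. The deposited normalized signal equals raw counts over the size factor of the library. The labels' protocol text speaks of 3 replicates per group, whereas 4 and 5 libraries are in the table.

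Members, gene lists and descriptions were chosen with earlier results of these data known. The named genes were the 6 members, the 4 most and 2 least similar listed genes with a mean of at least 10 raw counts, and the nuclear gene with the most counts (Col11a1). No group difference was tested, because the listed genes had been chosen by that difference. Sequences and positions came from GENCODE release M21 (GRCm38), in which all 6 gene IDs were found, and were aligned with Biopython 1.88. Wilson intervals (scipy 1.17.1) cover counting error only and take each count as an independent molecule. TMM factors came from edgeR 4.0.16 in R 4.3.3. The formulas for correlation, log2 ratio and TMM factors were tested on simulated data. Alternatives were other scalings, medians, a log scale (log2 with 1 added), other denominators, rank correlation and each library left out.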

Additional observations from a re-analysis of the deposited data

Results flagged for a closer look

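In Allograft replicate 3, Gm10925 had 13.9 raw counts per 1000 of mt-Nd2, while the other 4 Allograft libraries had 15.1 to 15.2, and its gap from them was large for a group of 5 (gap over range 0.875, above Dixon's 95% critical value). It was the only one of 58 groups of values examined in this way to stand out, and chance alone flags about 1 in 20.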

How the results depend on the processing

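All 6 genes kept a higher Allograft mean in each of the 15 alternative settings tried per gene. Over all results, 163 of 176 alternative values moved by less than the spread used for comparison. For the log2 ratios that spread was the pooled SD of log2(normalized count + 1), 0.42 (Gm50174) to 0.53 (mt-Cytb). This is a weak criterion, because mt-Nd1 at 0.27 with TMM factors was counted as not moved from 0.63. The values that reversed were 3 differences in spread, Spon. Healing SD of log2 minus Allograft SD, without Spon. Healing replicate 3 (an alternative chosen after seeing the data): -0.055 for mt-Atp8, -0.083 for Gm10925 and -0.054 for Gm50174. With each library left out in turn, the log2 ratio ranged from 0.40 to 0.83 for mt-Nd1, 0.53 to 0.99 for mt-Nd2, 0.47 to 0.97 for mt-Cytb, 0.51 to 0.88 for mt-Atp8, 0.62 to 0.99 for Gm10925 and 0.58 to 0.93 for Gm50174, the lowest each time without Spon. Healing replicate 3. Raw counts without scaling gave 1.11 for mt-Nd1. They keep the size factors of the libraries, 0.577 to 1.44 in Spon. Healing and 0.653 to 2.20 in Allograft. The normalized counts are raw counts over these factors, so the scaled and unscaled values differ by the factors alone. What made the factors differ between libraries was not tested. Leaving out Spon. Healing replicate 3 and Allograft replicate 1 together, an alternative chosen after seeing the data, gave 0.42 for mt-Nd1 to 0.67 for Gm10925. The number of genes with separate, higher Allograft values was 4 of 6 with the authors' size factors, beside 53.1% of all 98 listed genes. It was 0 of 6 with TMM or median-of-ratios factors over the other listed genes, beside 5.1% and 6.12%. Those genes had been selected on this same contrast, so this 0 of 6 does not show which scaling is right. Raw counts without scaling, which keep the size factors of the libraries, also gave 0 of 6, beside 4.08%.

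Without Col11a1, the listed nuclear gene with the most counts, in the denominator, the 4 mRNAs held 68.2% of the listed counts in Allograft. With a library left out, the mean share was 54.9% to 63.8% for Spon. Healing, and for Allograft 64.7% to 66.3%. The median r of the 15 pairs was 0.88 as Spearman's rho, 0.90 on normalized counts in place of their log2, 0.82 without the 2 farthest libraries, and 0.76 to 0.97 with a library left out, where the cause was not tested. No paired analysis was possible, because each library came from a different mouse and replicate numbers in the labels mark no shared animal or batch. Counting error limits the copies most, with 48 counts of Gm50174 in the lowest library.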

Other observations

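Beyond the 6 genes, 9 listed nuclear genes carried a deposited gene ontology term naming mitochondria, 5 of them higher and 4 lower in Allograft on average. They were looked up after the values were seen. Mars2, the methionyl-tRNA synthetase of mitochondria, had 44.8 ± 21.1 normalized counts in Spon. Healing (SD, n = 4) and 17.9 ± 8.99 in Allograft (SD, n = 5), with overlapping groups. Lyrm1, of the LYR motif family, had 58.7 ± 19.3 (SD, n = 4) and 8.80 ± 4.31 (SD, n = 5), without overlap. Its group mean was thus lower in Allograft, where the means of the mitochondrial mRNAs were higher. With group means subtracted it did not run opposite to them. Its r with the mean of the 4 mRNAs was 0.49 over the 9 libraries, and 0.26 without Spon. Healing replicate 3. The chromosome 1 stretch that holds Gm10925 also holds annotated copies of mt-Co2 (Gm28661, which holds 99.5% of that mRNA's 28-base windows), mt-Co3 (Gm28437, 99.9%), mt-Nd3 (Gm28438, 98.1%) and mt-Nd4l (Gm10222, 98.9%), none of which was listed.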
